A study of Mus musculus with 4 samples.

Results

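Primitive erythroid cells were described here as the 132 cells, of 24259 kept cells, that carried red cell transcripts in dissociated mouse embryo heads of stage E10.5 (the age in days after mating). They were chosen by their globin transcripts, which had to make up at least 10% of the cell's unique molecular identifiers (UMIs, counts of captured RNA molecules). A cell was kept when it had at least 500 detected genes and under 10% of its UMIs from mitochondrial genes, and the globin share was read from every gene whose symbol starts with Hba- or Hbb-. The globin values are therefore a description of the chosen cells. The study set embryos heterozygous for an altered Apcdd1 gene (Apcdd1+/-) against wild type (WT) embryos. Apcdd1 encodes a membrane protein known to inhibit Wnt signalling. The samples were labelled embryonic brain, with 2 libraries per genotype, and came from dissected heads held overnight in preservation solution, dissociated with enzymes and sorted with DAPI to remove dead cells. No source used here gives the mouse strain, the altered part of Apcdd1 or the number of embryos or litters in a library, so p-values measure only the spread between these libraries, which may be technical.

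Primitive erythroid cells are the first red cells of the mammalian embryo. They arise in the blood islands of the yolk sac, enter the circulation while still nucleated and dividing, and mature there as a cohort, losing the nucleus only later. They carry embryonic haemoglobins, built from the alpha-type chain zeta (Hba-x) and the beta-type chains epsilon-y (Hbb-y) and beta-h1 (Hbb-bh1), together with the adult-type alpha chains (Hba-a1 and Hba-a2). As the cohort matures, beta-h1 is known to give way to epsilon-y and zeta to adult-type alpha, whereas the adult-type beta genes (Hbb-bs and Hbb-bt) belong mainly to the definitive red cells made later in the fetal liver. In an embryonic head, these cells are blood carried in the vessels.

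The beta-type genes lie on the minus strand of chromosome 7 (mm10, GENCODE M21), with Hbb-y at 103851749 to 103853216, Hbb-bh1 at 103841637 to 103843164, Hbb-bs at 103826534 to 103828096 and Hbb-bt at 103812524 to 103813996. The alpha-type genes lie on the plus strand of chromosome 11, with Hba-x at 32276400 to 32278116, Hba-a1 at 32283511 to 32284465 and Hba-a2 at 32296489 to 32297298. Alas2, which encodes the erythroid form of the first enzyme of haem synthesis, lies on the plus strand of chromosome X at 150547375 to 150570638. The promoters of 4 genes with erythroid roles are shown because each holds a match to the GATA motif, the DNA letters known to be bound by GATA1. They are the embryonic globin Hbb-y, the haem enzyme Alas2, the erythroid transcription factor Klf1 and the red cell surface protein Ermap, and they were chosen after the values had been seen. Sequences are from RefSeq (GRCm38.p6), 5′ to 3′ on the gene's own strand, ending just before the first GENCODE exon. Capitals mark the GATA match, which in each lies on the opposite strand and so reads as its reverse complement. The Hbb-y stretch is chr7:103853217-103853457 (minus strand), Alas2 chrX:150547167-150547374 (plus), Klf1 chr8:84901732-84901927 (plus) and Ermap chr4:119190012-119190245 (minus).
Hbb-y: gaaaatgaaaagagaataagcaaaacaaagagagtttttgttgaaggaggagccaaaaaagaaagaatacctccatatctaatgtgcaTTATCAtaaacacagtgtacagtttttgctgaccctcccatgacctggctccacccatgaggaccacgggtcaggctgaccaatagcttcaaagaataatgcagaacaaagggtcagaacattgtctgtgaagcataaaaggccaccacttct
Alas2: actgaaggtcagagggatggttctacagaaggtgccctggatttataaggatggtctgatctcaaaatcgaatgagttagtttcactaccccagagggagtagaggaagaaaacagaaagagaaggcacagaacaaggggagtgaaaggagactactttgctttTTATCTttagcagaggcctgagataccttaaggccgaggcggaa
Klf1: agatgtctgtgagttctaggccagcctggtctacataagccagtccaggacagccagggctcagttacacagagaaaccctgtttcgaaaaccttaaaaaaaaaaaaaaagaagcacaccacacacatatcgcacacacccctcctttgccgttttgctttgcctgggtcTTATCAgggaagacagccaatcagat
Ermap: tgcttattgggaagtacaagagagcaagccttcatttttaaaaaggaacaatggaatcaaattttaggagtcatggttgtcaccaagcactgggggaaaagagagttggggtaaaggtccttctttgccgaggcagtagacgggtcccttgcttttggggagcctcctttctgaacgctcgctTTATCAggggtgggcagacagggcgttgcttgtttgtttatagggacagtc
The match starts 162 bases before the RefSeq start of Hbb-y, 86 before Alas2, 80 before Klf1 and 67 before Ermap. In the 250 bases before a start, searched on both strands for GATA with A or T before it and A or G after it, a GATA match was held by 26.5% of all 32851 promoters in the table. It was held by 15.8% of the 9388 promoters of genes with a level high enough to compare here, and by 21.4% (96 of 449) of the promoters of genes at least 2-fold higher in erythroid cells than in the other kept cells. The share for genes at least 2-fold lower was 16.1% of 2361. For the KLF motif CCNCNCCC, the shares were 64.9% of the promoters of compared genes, 68.8% for higher genes and 70.2% for lower genes. A match is a description of the letters and was not tested as a site.

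The erythroid cells stood well apart from the threshold that chose them. The lowest globin shares among them were 22.7%, 24.0%, 24.3% and 31.0%, the median was 42.5% and the highest was 57.7%. The highest shares among cells left outside were 6.02%, 4.77% and 2.87%, and 24062 of the 24127 other cells (99.7%) were under 0.1%. No kept cell lay between 6.02% and 22.7%, so a threshold of 20% picked the same cells. A further 6 barcodes at 10% globin or more failed the other filters, 4 of them on detected genes and 2 on mitochondrial share.

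**Figure D1:**
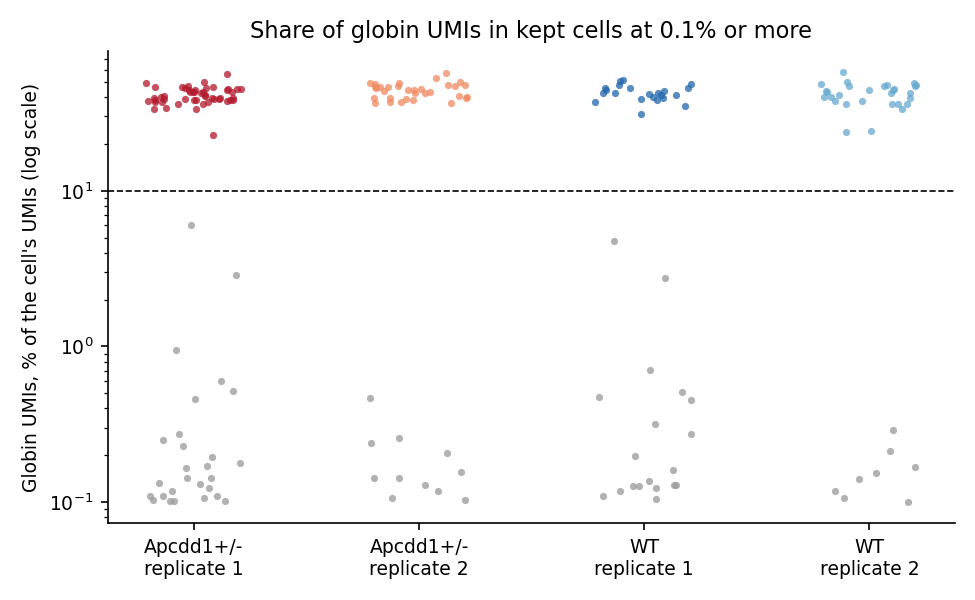
Globin UMIs as a percentage of each kept cell's UMIs (log scale) for every cell at 0.1% or more, by library; each point is 1 cell, colour marks the 132 cells above the dashed threshold of 10% and grey the cells below it. The erythroid cells lie between 22.7% and 57.7%, and the highest cell below the line is at 6.02%.

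Values for the 4 libraries are given below in the order Apcdd1+/- replicate 1, Apcdd1+/- replicate 2, WT replicate 1 and WT replicate 2, as labelled. Total UMIs per library were between 55393605 and 96822641, over 3122 to 9735 barcodes. Apcdd1 itself did not separate the labels in the other kept cells, with 78.0, 49.9, 63.8 and 61.8 UMIs per 1000000 non-globin UMIs (written CPM below), so directions between genotypes are those of the labels. Of 25065 barcode sequences named in the files, 100 occurred in more than 1 library. The barcode list of the library labelled Apcdd1+/- replicate 1 was incomplete (3994 complete cell names for 9735 matrix columns), so sharing was counted over 109 of the 132 erythroid cells, and 1 of their 171 barcodes occurred in another library.

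The libraries held 49, 32, 22 and 29 erythroid cells, among 9501, 5544, 6258 and 2956 kept cells. These were shares of 0.516% (95% Wilson interval 0.390 to 0.681%, counting error only), 0.577% (0.409 to 0.814%), 0.352% (0.232 to 0.532%) and 0.981% (0.684 to 1.41%). The WT libraries gave the lowest and the highest share, and both libraries labelled Apcdd1+/- lay between them. The share was 0.546% ± 0.0435 (SD, n = 2) in the libraries labelled Apcdd1+/- and 0.666% ± 0.445 (n = 2) in WT, a difference of -0.120 points (two-sided exact permutation test, p = 1.0, where 0.33 is the smallest p that 2 against 2 allows). Without WT replicate 2 the difference was 0.195 points, so its sign rested on that library.

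Erythroid cells carried more UMIs than the other kept cells when globin was counted, and fewer kinds of transcript for their depth. Their median UMI count was 17211, 15437.5, 29277.5 and 29450, against 9107, 8907, 11479 and 17065 in the other kept cells, and single erythroid cells ranged from 1412 to 64700 UMIs. Without globin their medians were 9292, 8676, 16264 and 15841, below those of the other cells in 2 of 4 libraries. Cells were deeper in both WT libraries, among the erythroid cells and among the others. With each cell thinned to 2000 non-globin UMIs, the median erythroid cell had 956, 957, 923 and 936 detected genes, against 1126, 1117, 1117 and 1160 in other cells. Without thinning, the medians in erythroid cells were 2551, 2347.5, 3028 and 3450 genes. Thinning left out 4, 1, 0 and 4 erythroid cells and 122, 91, 140 and 48 other cells with too few UMIs. The median mitochondrial share of erythroid cells was 1.77%, 1.53%, 1.69% and 1.83%.

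Embryonic globins gave most of the globin UMIs in all 4 libraries. Hbb-y gave 42.9%, 41.0%, 41.8% and 41.7% of the erythroid cells' globin UMIs, and 17.4%, 17.8%, 17.6% and 17.5% of all their UMIs. Hba-x gave 16.7%, 17.2%, 16.3% and 16.5% of globin UMIs. Both shares were nearly level over the libraries. Hbb-bh1 gave 17.3%, 9.83%, 15.2% and 13.5%, and was lowest in Apcdd1+/- replicate 2. Hba-a1 gave 16.1%, 22.6%, 18.7% and 19.3%, and Hba-a2 6.47%, 8.91%, 7.40% and 8.33%, both highest in the library where Hbb-bh1 was lowest. These are shares of UMIs and not corrected for length. The longest GENCODE transcripts of these genes are 554 to 801 bases.

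Adult-type beta globin UMIs were rare. Hbb-bt and Hbb-bs together had 0.806%, 0.899%, 1.05% and 1.21% of beta-type UMIs, from 5482 Hbb-bt and 1355 Hbb-bs UMIs against 506763 of Hbb-y. Hbb-bh2, a minor beta-type gene, had 4 UMIs in all. Both WT libraries lay above both libraries labelled Apcdd1+/-, with means of 1.13% ± 0.118 and 0.852% ± 0.0658 (SD, n = 2 each). The difference of -0.278 points had the smallest p that the design allows (two-sided exact permutation test, p = 0.33), and lay between -0.362 and -0.195 points over all 11 alternatives run. Among these, a 20% globin threshold and a 1% limit on other-cell markers chose the same cells and could not differ. Single cells ranged from 0 to 3.34%, with a median of 0.699%, and 129 of 132 cells had at least 1 adult-type beta UMI. The other kept cells did not show this order of genotypes. Their Hbb-bt share of beta-type UMIs was 3.076%, 0.657%, 0.991% and 1.897%, from 84, 9, 21 and 57 UMIs. There the libraries labelled Apcdd1+/- were the highest and the lowest. Hbb-bs had 2, 1, 0 and 1 UMIs in those cells. Hbq1b, the alpha-type theta globin gene, had 89.5, 101, 113 and 130 CPM, against a mean of 0.0282 in the other kept cells.

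Near copies limit how these UMIs can be divided between genes. The longest transcripts of Hba-a1 and Hba-a2 were identical at 537 of 538 aligned bases (99.8%), and those of Hbb-bs and Hbb-bt at 580 of 626 (92.7%), so the split within either pair is uncertain. Hbb-y and Hbb-bh1 were identical at 450 of 611 (73.6%), and Hba-x and Hba-a1 at 64.9%.

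**Figure D2:**
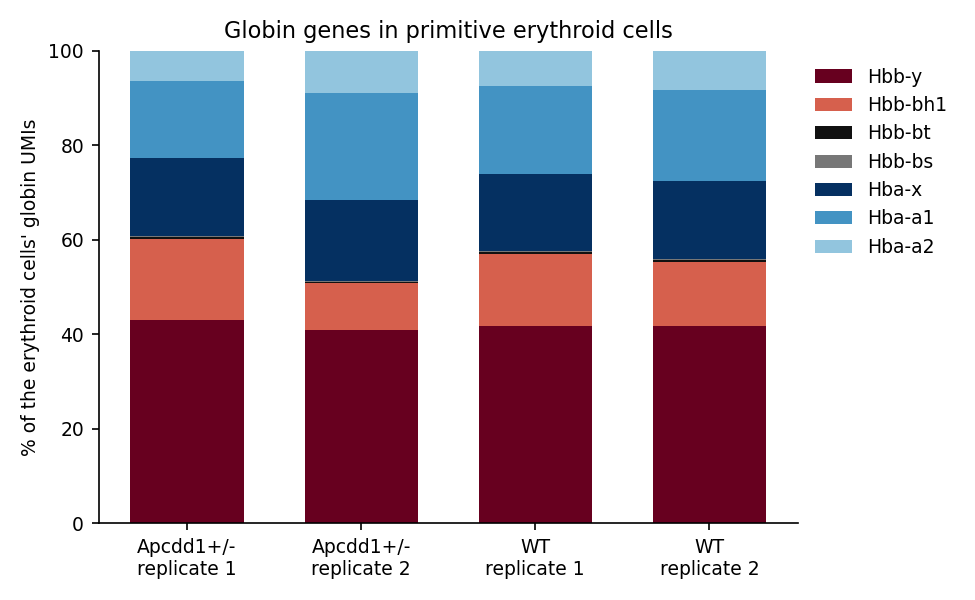
Share of each globin gene in the globin UMIs of the erythroid cells (%), stacked to 100% for each library (49, 32, 22 and 29 cells); beta-type genes are in red, black and grey and alpha-type genes in blue. Hbb-y holds 41.0 to 42.9% everywhere, whereas Hbb-bh1 ranges from 9.83 to 17.3%.

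The balance between embryonic globins differed most between the libraries labelled Apcdd1+/-. Hbb-bh1 made up 28.7%, 19.3%, 26.6% and 24.4% of Hbb-bh1 and Hbb-y UMIs. The cells of a library stayed close together. In Apcdd1+/- replicate 1 single cells ranged from 23.6% to 35.9% (median 28.2%), and in replicate 2 from 12.0% to 25.0% (median 17.7%), so these libraries barely overlapped. WT cells lay at 18.6% to 31.6% (median 27.2%) and 19.7% to 29.6% (median 24.4%).

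Alpha-type globins showed the reverse order of libraries. The ratio of Hba- to Hbb- UMIs was 0.647, 0.950, 0.736 and 0.790, with cell medians of 0.651, 0.948, 0.738 and 0.795. Adult-type genes made up 57.6%, 64.7%, 61.6% and 62.6% of alpha-type UMIs. In all 3 measures the libraries labelled Apcdd1+/- were the lowest and the highest and both WT libraries lay between them. Both replicates 2 also lay on the same side of both replicates 1 in all 3 measures. What a replicate number marks is not given, and its part was not tested. The genotypes differed by -0.940 points in the adult-type alpha share (two-sided exact permutation test, p = 1.0, n = 2 each), and by 2.64 points without Apcdd1+/- replicate 1. The few globin UMIs in the other kept cells also put the libraries labelled Apcdd1+/- at both ends, with Hbb-bh1 shares of 26.5%, 15.6%, 24.9% and 21.7% and ratios of 0.510, 0.848, 0.721 and 0.703. Their adult-type alpha share did not, at 55.1%, 57.8%, 58.1% and 52.3%, where the WT libraries were the highest and the lowest. Erythroid cells held 98.7%, 99.1%, 98.5% and 98.7% of the globin UMIs of kept cells.

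**Figure D3:**
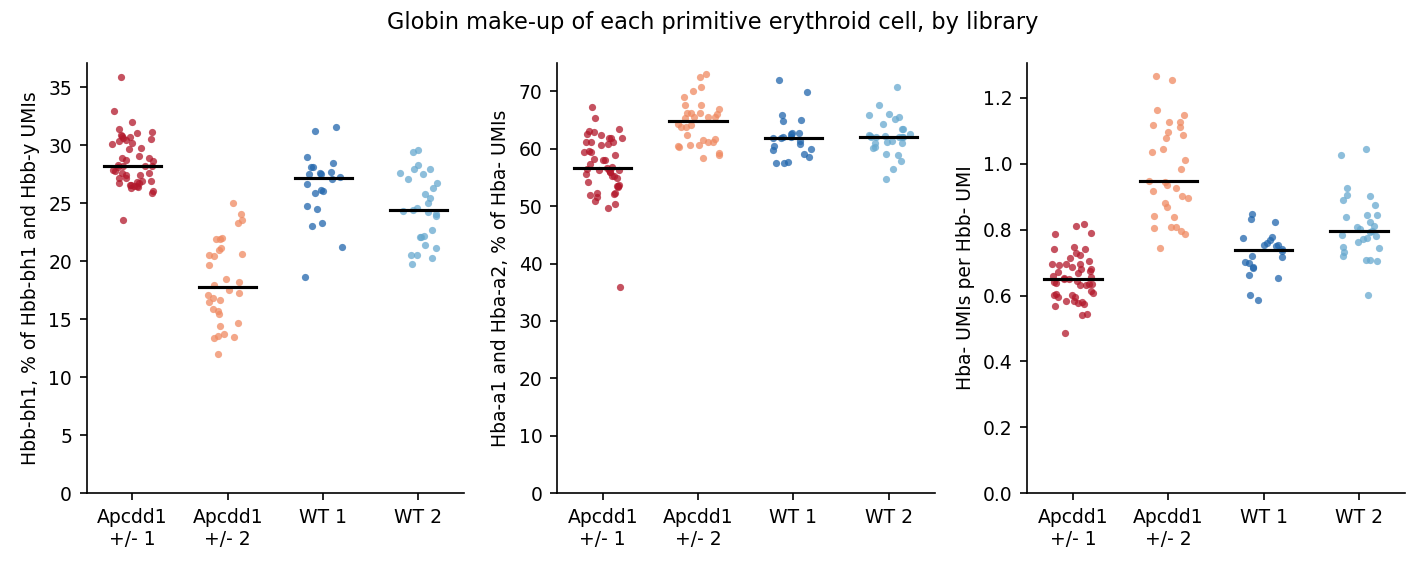
Globin make-up of each erythroid cell by library: Hbb-bh1 as a percentage of Hbb-bh1 and Hbb-y UMIs (left), Hba-a1 and Hba-a2 as a percentage of Hba- UMIs (middle) and Hba- UMIs per Hbb- UMI (right). Points are cells and black lines library medians; the medians of Apcdd1+/- replicates 1 and 2 are 28.2% and 17.7% on the left and 0.651 and 0.948 on the right, with both WT libraries between them.

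The other genes were read as CPM of non-globin UMIs, summed over the erythroid cells of a library, and set beside the same value in all other kept cells. This is a description with no test, since the globin threshold chose the cells. A gene was compared when its mean was at least 10 CPM in either population, and called higher or lower when it was at least 2-fold apart in the same direction in all 4 libraries. Of 9094 genes compared, 417 were higher (4.59%) and 2187 were lower (24.0%). The median difference over these genes was -0.57 on the log2 scale, and 116 of them had no UMI in erythroid cells.

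Most genes of haem synthesis were higher in erythroid cells. Haem is the iron ring that globin chains hold, and its synthesis begins and ends in mitochondria. Of 14 genes listed, 13 were compared, and 12 of these were higher (background 4.59%) and 0 lower. Their summed level was 7358, 7086, 7557 and 7253 CPM, against 450 to 485 in the other cells. Alas2 had 923, 945, 1071 and 1051 CPM and a mean of 0.970 in other cells, a ratio of 1025 (801 to 1407 by library). Alas1, the form used outside red cells, had 2 UMIs in all erythroid cells.

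The enzymes named next were higher by smaller ratios than Alas2. Alad, which joins pairs of the first product, had 620, 720, 738 and 684 CPM (15.4-fold). Uros, which closes the ring, had 83.0, 64.5, 74.1 and 80.3 (16.0-fold), and Urod, which trims its side chains, 701, 855, 724 and 667 (14.6-fold). No library stood apart from the rest in any of these. Cpox and Ppox, oxidases of the later steps, had 872 to 1088 and 112 to 141 CPM (81.9-fold and 9.89-fold). Fech, which inserts the iron, had 323, 272, 341 and 294 (49.7-fold).

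Transporters of the pathway were higher too. Tmem14c, which carries haem intermediates in mitochondria, had 1779, 1116, 1661 and 1551 CPM (13.5-fold), Abcb10 393 to 527 (30.6-fold), and the mitochondrial carriers Slc25a39 and Slc25a38 were 4.27-fold and 3.52-fold higher.

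Iron genes were higher or within the 2-fold limit. Of 12 compared, 7 were higher (background 4.59%) and 0 lower, with summed levels of 15572, 14971, 15146 and 13573 CPM. Tfrc, the transferrin receptor that brings iron into the cell, had 485, 704, 359 and 554 CPM (5.03-fold, 3.91 to 6.07 by library). Steap3, the reductase of the endosome, had 78.6, 72.9, 68.2 and 80.3 (102-fold). Slc25a37, the iron carrier of the mitochondrial membrane, had 716, 726, 546 and 604 (101-fold). The ferritin chains Fth1 and Ftl1, which store iron, were 14.2-fold and 3.45-fold higher, with Fth1 at 9978, 9968, 9597 and 8464 CPM. Tfr2, another transferrin receptor, was 62.5-fold and the iron exporter Slc40a1 11.1-fold higher.

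Transcription factors of the erythroid programme were present in every library. Of 16 compared, 13 were higher (background 4.59%) and 0 lower. Gata1, the GATA factor of red cells, had 153, 143, 172 and 136 CPM (350-fold), and Klf1, which activates globin and other red cell genes, 286, 199, 246 and 243 (388-fold). Tal1, a partner of GATA1, had 266, 311, 267 and 340 (85.3-fold), and Nfe2, a factor of the globin loci, 133, 149, 139 and 138 (145-fold). The levels of these 4 genes overlapped between genotypes. Gfi1b, a repressor acting with GATA1, was 297-fold higher on 48 UMIs, Lyl1 54.6-fold, Zfpm1, the GATA1 partner FOG1, 43.2-fold and Ikzf1 39.9-fold. Ldb1, Klf3 and E2f4, with ratios of 0.99, 1.13 and 2.42, were neither.

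Factors known to switch globin genes were mostly low. Of 6 compared, 1 was higher (background 4.59%) and 4 lower (background 24.0%). Zbtb7a, a repressor of embryonic and fetal globins, was the higher one, at 37.1, 84.1, 94.9 and 70.7 CPM (5.82-fold). Bcl11a and Sox6, which silence embryonic beta-type globins in definitive cells, had 1 and 13 UMIs over the 132 cells, and Myb, which definitive progenitors need, had 0, where 3 UMIs would be 1.79 CPM. Igf2bp1 had 127, 146, 74.1 and 126 CPM and was 8.20-fold lower than in other cells, and Lin28b was 3.65-fold lower on 39 UMIs. Factors of stem and progenitor cells were near 0. Of 9 listed, 2 were compared and both were lower (background 24.0%). Kit, Hlf and Ptprc had 0 UMIs, Gata2 3 and Runx1 8.

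Most genes of the membrane and its skeleton were higher than in the other cells. Of 18 genes compared, 16 were higher (background 4.59%) and 0 lower, with a summed level of 4708, 5270, 4807 and 4698 CPM against 196 to 227 in the other cells. Slc4a1, the anion exchanger band 3, had 1157, 1494, 1349 and 1370 CPM, a ratio of 6817 (5704 to 8614 by library). Ermap, a surface protein of the butyrophilin family, had 476, 631, 454 and 422 (1046-fold). Both were below 1 CPM in the other cells. Kel and Icam4, a blood group protease and adhesion protein, were 2247-fold and 1109-fold higher, and the Rh family genes Rhag and Rhd 1083-fold and 313-fold.

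Skeleton proteins under the membrane followed. Beta spectrin Sptb, ankyrin Ank1 and Epb42 were 245-fold, 183-fold and 1352-fold higher. Epb41, which ties spectrin to actin and is used by many cells, had 336, 398, 383 and 395 CPM, 2.99-fold above other cells. Mpp1 and Cd47, with ratios of 0.52 and 1.53, were neither, and the water channel gene Aqp1 had 0 UMIs.

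Most erythropoietin signalling genes compared were higher. Of 7 compared, 5 were higher (background 4.59%; 4 or 5 over the alternatives) and 0 lower. Epor, the erythropoietin receptor, had 74.2, 42.1, 38.5 and 32.5 CPM (280-fold), and Stat5a and Stat5b, the factors it activates, were 23.8-fold and 4.37-fold higher. Pim1, a kinase gene downstream of STAT5, had 255, 591, 314 and 413 CPM (4.27-fold), and Cish, an inhibitor of the pathway, was 5.11-fold higher. The receptor's kinase Jak2, at 2.03-fold (1.09 to 3.22 by library), and the survival gene Bcl2l1, at 0.88, were neither. Of adhesion receptors, Itgb3 was 8.56-fold higher and Itgb1 2.55-fold lower, and Itga4, Itga5, Cd36, Pecam1 and Emcn had 0 UMIs.

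**Figure D4:**
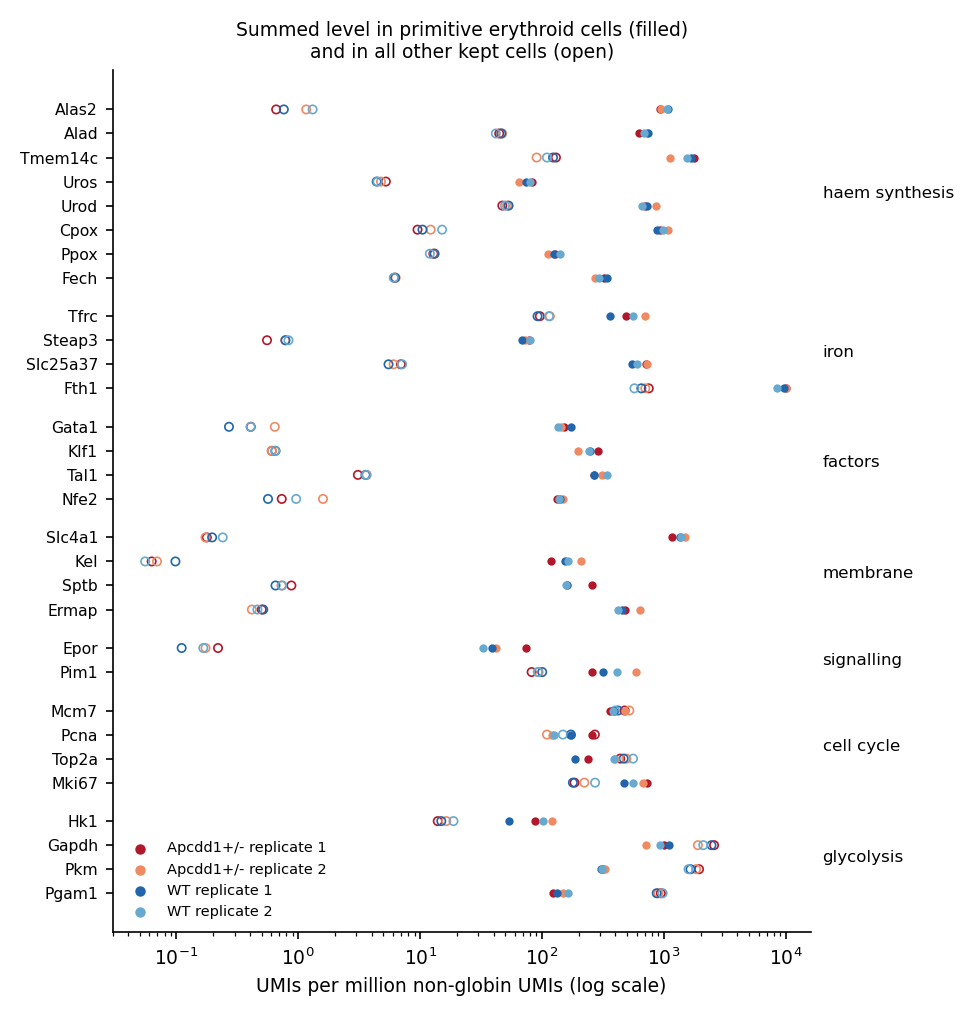
Level of 30 genes in UMIs per 1000000 non-globin UMIs (CPM, log scale), summed over the erythroid cells (filled) or all other kept cells (open) of each library; colour marks the library and groups of genes are named on the right. The 4 filled points of a gene lie close together, to the right of the open points from Alas2 to Pim1, near them for Mcm7 and Pcna, and to their left for Gapdh, Pkm and Pgam1.

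Genes for gas exchange and protection from oxidants were mixed. Of 12 compared, 8 were higher (background 4.59%) and 0 lower. Car2, a carbonic anhydrase, had 1786, 1390, 1382 and 1242 CPM (258-fold), whereas Car1 had 3 UMIs. Blvrb, a biliverdin reductase, had 1159, 1026, 1177 and 1079 (153-fold), and Bpgm, which makes the bisphosphoglycerate that lowers oxygen binding, 1170, 1177, 1112 and 963 (16.6-fold). Gpx1 and Prdx2, peroxidases of red cells, were 12.0-fold and 3.63-fold higher, and Glrx5, of iron-sulphur cluster assembly, 7.80-fold. Sod1, Cat, Txn1 and Gpx4, with ratios of 0.80 to 1.64, were neither, and Hmox1, which breaks haem down, had 0 UMIs.

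Genes of the final remodelling differed in both directions. Of 12 compared, 3 were higher (background 4.59%) and 2 lower (background 24.0%). Trim10, a ring finger gene of red cells, had 103, 95.3, 65.2 and 72.6 CPM (2783-fold), Ube2l6, a ubiquitin-conjugating enzyme gene, was 34.9-fold and Fbxo7, of a ubiquitin ligase, 4.73-fold higher. Bnip3l and Map1lc3b, of the removal of mitochondria by autophagy, had ratios of 1.06 and 1.05, and the autophagy kinase Ulk1 was 4.17-fold lower.

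Most cell cycle genes were within the 2-fold limit of the other cells. Of 24 S phase genes, 0 were higher (background 4.59%) and 1 lower (background 24.0%). The lower one was Hells, a chromatin remodeller (3.16-fold). The replication genes Mcm7, Pcna and Mcm2 had ratios of 0.89, 0.96 and 1.28. Of 24 G2/M genes, 1 was higher and 1 lower (background 4.59% and 24.0%). Mki67, a marker of dividing cells, was the higher one, with 731, 676, 472 and 554 CPM against a mean of 215 (2.83-fold). It was not called with the mean over cells of each cell's own level. Over the alternatives the G2/M counts were 0 to 2 higher and 1 to 4 lower, with 4 lower without Apcdd1+/- replicate 1, 3 lower without the 4 cells above 0.1% of other-cell markers, 2 lower without Apcdd1+/- replicate 2 and 2 higher without WT replicate 1. The S phase count was 3 lower without WT replicate 1. Bub3, of the spindle checkpoint, was 2.76-fold lower, and Top2a, a topoisomerase of mitosis, had a ratio of 0.62. Of 8 genes of cell cycle exit, 1 was higher (background 4.59%) and 3 lower (background 24.0%). Gadd45a, induced by DNA damage, was the higher one at 101 to 124 CPM (5.40-fold), and the inhibitors Cdkn1c and Cdkn1b were 10.7-fold and 2.73-fold lower.

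Single cells differed in their levels of phase genes, and no phase was called for any cell. S phase UMIs ranged from 0 to 8076 CPM (median 3909) and G2/M UMIs from 0 to 8606 (median 2456). Shallow cells widen such ranges, and the highest S phase value was 11 UMIs in a cell with 1362 non-globin UMIs. Over the cells of each library, Spearman's rho between these levels was -0.381, -0.430, -0.618 and -0.041 (49, 32, 22 and 29 cells, which share a library). The relation was negative in 3 libraries and near 0 in WT replicate 2.

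Several glycolysis genes were lower than in the other kept cells, apart from the hexokinase Hk1. Of 15 genes compared, 1 was higher (background 4.59%) and 6 lower (background 24.0%). Hk1, the enzyme of the first step in red cells, was the higher one at 87.3, 121, 53.4 and 101 CPM (5.67-fold), whereas Hk2 was 5.96-fold lower. Gapdh had 993, 715, 1097 and 932 CPM against a mean of 2258 (2.42-fold lower), and Pgk1, Eno1, Pkm and Pgam1, of the later steps, were 3.59-fold, 4.13-fold, 5.60-fold and 6.49-fold lower. Pklr, the pyruvate kinase of liver and red cells, stood outside the list, at 338, 308, 270 and 256 CPM (1734-fold).

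Wnt pathway genes, the setting in which Apcdd1 acts, were mostly low in erythroid cells. Of 10 compared, 1 was higher (background 4.59%) and 8 lower (background 24.0%), and their summed level was 210, 193, 178 and 206 CPM, against 1738 to 1840. Myc was the higher one, at 30.6, 16.8, 17.8 and 21.0 CPM (4.95-fold). Ctnnb1, which encodes beta-catenin, was 5.80-fold lower, the target gene Ccnd1 22.7-fold lower, and Axin2, Nkd1, Lef1, Sfrp1 and Sfrp2 were also lower. Apcdd1 had 9 UMIs in the erythroid cells of all libraries, or 8.73, 11.2, 2.97 and 0 CPM, against a mean of 63.4 in other cells.

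Genes that every cell uses lay slightly above the other cells on this scale. Of 83 cytosolic ribosomal protein genes, 0 were higher and 0 lower, with a median of 0.48 on the log2 scale, and of 12 mitochondrially encoded genes likewise 0 and 0, with a median of 0.37. Both medians stand beside the -0.57 of all genes compared. Of 10 immediate early and heat shock genes, 0 were higher (background 4.59%) and 1 was lower (Jun, 5.77-fold, background 24.0%).

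Outside the lists, metallothioneins were among the genes with the largest ratios. The genes named here are from the 10 with the largest ratio among genes in no list and at 100 CPM or more in every library. Mt1, which binds zinc and copper, had 7969, 11580, 9295 and 9769 CPM against a mean of 32.2 (300-fold), and Mt2 6304, 8516, 8040 and 8884 against 29.4 (270-fold). Hemgn, a nuclear protein gene of blood cells, had 631, 1054, 736 and 762 (4168-fold). Hsd3b6, a steroid dehydrogenase gene, had 107, 151, 122 and 208 (3868-fold), and Acp5, an acid phosphatase gene, 653, 1160, 884 and 867 (1773-fold). All 5 were lowest in Apcdd1+/- replicate 1. Pdzk1ip1 and Cited4 were 1327-fold and 550-fold higher.

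Neural, epithelial and neural crest markers were lower in the erythroid cells than in the others. Of the neural progenitor markers, 10 of 10 compared were lower (background 24.0%), with summed levels of 120, 92.5, 125 and 42.0 CPM against 1434 to 1650. Neuron markers were 10 of 10 lower, epithelium markers 5 of 5 and neural crest markers 3 of 3. Endothelial markers summed to about the level of the other cells, at 80.8, 92.5, 104 and 109 CPM against 63.4 to 124, and 0 of 3 compared were lower. Of these 10 markers 7 had 0 UMIs, including Pecam1 and Cdh5, and the sum came from Ramp2, a receptor subunit (122 UMIs), Egfl7, a secreted protein (38 UMIs), and Kdr (2 UMIs). Megakaryocyte and platelet markers summed to 58.9, 75.7, 53.4 and 43.9 CPM against 32.7 to 95.6. Of these 10 markers 6 had 0 UMIs, including Pf4, and Itga2b, shared by megakaryocytes and early blood cells, gave 54.6, 70.1, 50.4 and 38.2 CPM (15.7-fold). Macrophage markers summed to 2.8 to 5.9 CPM against 39.9 to 133, and 8 of 10 had 0 UMIs, including Ptprc. The part of endothelial and megakaryocyte RNA in other results was not tested.

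A few erythroid cells held markers of other head cells. No caller of doublets was run. Marker UMIs of neural, mesenchymal and epithelial cells reached at most 0.365% of a cell's non-globin UMIs, and 4 cells were above 0.1%. Of mesenchyme markers 2 of 7 were lower, near the background of 24.0%. The mesenchyme markers summed to 6.5, 5.6, 5.9 and 250 CPM, against 300 to 387 in other cells. The high value of WT replicate 2 came from 1 cell, which held 124 of the library's 131 mesenchyme UMIs. That cell was the one at 0.365% and had a globin share of 24.3%, the third lowest. Without it, the sum in WT replicate 2 was 14.4 CPM.

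Erythroid cells with the largest globin shares had somewhat more transcripts of the red cell lists than those with the smallest. Globin share also chose the cells, so this is a description with no test. The planned bins of globin share held 3, 129 and 0 cells, so bins with edges at 40% and 45% were added after the data were seen, with 50, 41 and 41 cells. By library, the lowest bin held 24, 9, 6 and 11 cells and the highest 10, 15, 7 and 9. From the lowest to the highest bin, haem genes summed to 6556, 7790 and 7839 CPM, membrane genes to 4381, 5068 and 5270, and metallothioneins to 14580, 17242 and 22340. From the middle to the highest bin, haem genes fell in Apcdd1+/- replicate 2 (7471 to 7257) and WT replicate 1 (8284 to 7929). They rose in Apcdd1+/- replicate 1 (7728 to 8398) and WT replicate 2 (7604 to 8009). The lowest bin also held the cell with the most marker UMIs of other head cells, whose part was not tested. Metallothioneins were higher in the top than in the lowest bin within each library (11834 and 20708, 14370 and 24618, 15497 and 21181, 17679 and 21896). Median detected genes went from 2945 to 2849 and 2467, and the median mitochondrial share from 1.83% to 1.70% and 1.52%. Spearman's rho between globin and mitochondrial shares was -0.476, -0.316, -0.257 and -0.136 over the cells of each library. Both are shares of the same total.

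Csf2rb was detected in fewer erythroid cells than its level and their depth would give. For each of 1395 genes at 100 CPM or more, the cells with a UMI were counted. This count was set against the number that an even level within each library would give at each cell's depth, added over the libraries. The median gene reached 0.967 of that number, and 14 genes were under 0.8. For an abundant gene the measure says little, since it has a UMI in nearly every cell however its level varies. Csf2rb, the shared beta chain of the receptors for interleukin-3, GM-CSF and interleukin-5, was the lowest at 0.612, with UMIs in 74 of 132 cells where 120.8 would be given. It was singled out after these values were seen.

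Csf2rb fell short in each library. Its level was 362, 544, 436 and 457 CPM, against 0.95 in other cells (473-fold). It had UMIs in 27 of 49, 15 of 32, 15 of 22 and 17 of 29 cells, and the highest cell of each library held 17, 100, 61 and 34 UMIs. The 24 cells with 10 or more UMIs (7, 4, 3 and 10 by library) held 74.7% of its 746 UMIs, and 58 cells had none. Depth differed between these cells, with medians of 20634 non-globin UMIs in the former and 7103.5 in the latter, and its part in the split was not tested beyond the depth correction given. Csf2rb2, a close copy in mice, had 102 UMIs in 25 cells, 21 of which also had a Csf2rb UMI, and reads may be divided between the copies. The alpha chains Csf2ra and Il3ra, with 1663 and 582 UMIs in the other kept cells, had 0 in erythroid cells. Slc25a4 (61 cells of 90.5 given by an even level) and Hsd3b6 (67 of 92.1) followed.

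**Figure D5:**
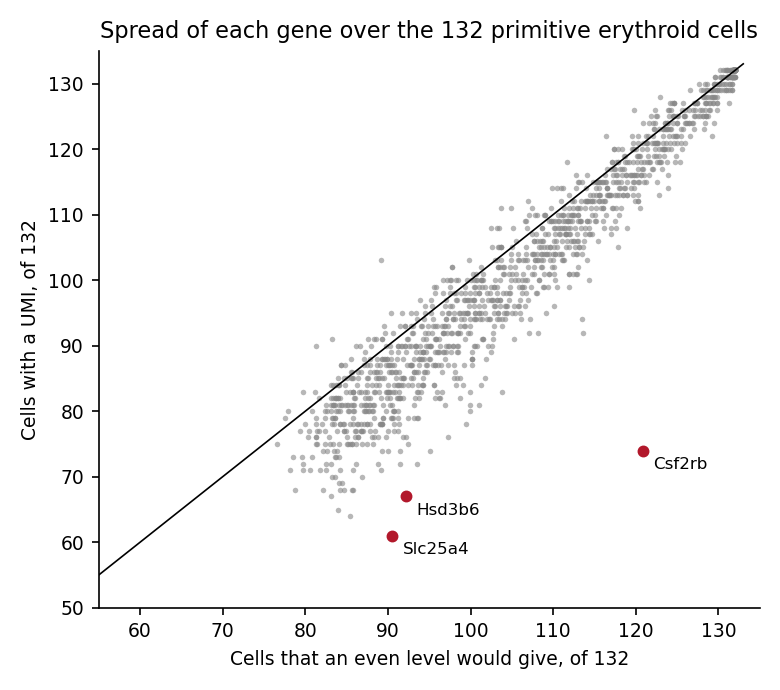
Cells with at least 1 UMI (of 132) for 1395 genes, against the number given by an even level within each library. That number takes account of each cell's depth. Each point is a gene, the line marks equality and 3 genes are named. Csf2rb lies far below the line, at 74 cells of 120.8, and Slc25a4 and Hsd3b6 lie below it at 61 and 67 cells.

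The design set the genotypes against each other, and the question asked here was whether erythroid cells differed between them. No gene passed the test. UMIs were summed over the erythroid cells of a library, giving 458128, 356751, 337185 and 523396 non-globin UMIs, and tested with edgeR's quasi-likelihood test. Of 4451 genes, 0 had an adjusted p under 0.05 (0%; smallest adjusted p = 0.732, edgeR), 177 had an unadjusted p under 0.05 (3.98%), and 1451 (32.6%) had libraries that did not overlap between genotypes. DESeq2 called 0 of 12820 genes, with 55 at an unadjusted p under 0.05. With 22 to 49 cells and 2 libraries per group, this says only that no difference was detectable at this depth.

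The medians of the haem, iron, transcription factor and membrane lists lay close to 0, over genes that differed in both directions. None of their genes passed the test, and the median log2 difference, Apcdd1+/- labelled minus WT, was -0.10 over 13 haem genes, -0.13 over 10 iron genes, 0.09 over 15 transcription factors and -0.05 over 17 membrane genes, beside 0.00 over all genes. Cell cycle lists had medians of -0.03 (23 S phase genes) and 0.16 (22 G2/M genes). The 4 erythropoietin signalling genes tested were all above 0, with a median of 0.67. Epor, whose libraries did not overlap, was at 0.69 ± 0.42 (SE, edgeR adjusted p = 0.997, n = 2 each). Genes whose symbol starts with Rpl or Rps, pseudogenes included, were below 0 in 81 of 89, beside 2218 of 4451 over all genes. Their median was -0.20, and 15 of them had an unadjusted edgeR p under 0.05, beside 3.98% over all genes. The 83 ribosomal protein genes compared above summed to 285933, 285790, 320017 and 297222 CPM in erythroid cells. In the other kept cells they summed to 206814, 206060, 215129 and 196226 CPM, with the WT libraries the highest and the lowest.

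The genes with the smallest unadjusted p are given as values, since none passed the adjustment. Slc2a1, the glucose transporter GLUT1, had 82.9, 78.5, 26.7 and 26.7 CPM (log2 difference 1.52 ± 0.39 SE, edgeR adjusted p = 0.732), from 38, 28, 9 and 14 UMIs. The other kept cells had 71.9, 56.1, 51.2 and 54.9 CPM of it. Thus both libraries labelled Apcdd1+/- were above both WT libraries in either population, with a wider gap in the erythroid cells, a contrast that was not tested. Fnbp4, a formin-binding protein gene, had 100, 84.1, 29.7 and 42.0 (1.27 ± 0.36, edgeR adjusted p = 0.914), and Ier2, an immediate early gene, 41.5, 75.7, 23.7 and 7.64 (1.92 ± 0.56, edgeR adjusted p = 0.921). The Ier2 difference was 1.16 without WT replicate 2 and 2.83 without WT replicate 1.

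On the lower side, Cdkn1c came first. It encodes a cell cycle inhibitor, and had 13.1, 14.0, 44.5 and 82.2 CPM, from 6, 5, 15 and 43 UMIs (log2 difference -2.31 ± 0.50 SE, edgeR adjusted p = 0.732). It was far more abundant in the other kept cells, at 378, 418, 421 and 423 CPM. In WT replicate 2, 30 of the 43 UMIs lay in the cell that held most of its mesenchyme UMIs, and without that cell the library was at 26.8 CPM. Without the 4 cells above 0.1% of other-cell markers, the levels were 11.4, 14.0, 38.9 and 18.6 CPM, and the gene fell below the filter on low counts. The difference lay between -2.62 and -1.80 in the other 15 alternatives, with an edgeR adjusted p of 0.0459 without Apcdd1+/- replicate 1, 0.0327 without Apcdd1+/- replicate 2 and 0.0218 without a filter on low counts. The edgeR adjusted p was 0.998 without WT replicate 2 and 0.869 with a replicate block. Gm2000 (369, 485, 718 and 780 CPM) and Vmp1 (498, 474, 691 and 894), a gene of autophagy, differed by -0.88 ± 0.20 and -0.77 ± 0.20 (edgeR adjusted p = 0.732 for both). In the other kept cells both had the same order of genotypes, with Gm2000 at 303, 385, 436 and 494 and Vmp1 at 348, 307, 446 and 549 CPM.

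Some genes were called once a library was left out. Leaving out each in turn gave 24, 10, 2 and 1 called genes, 32 different genes in all, 4 of them called more than once. Fos, an immediate early gene known to respond to cell handling, was among them, with 6.55, 126, 0 and 17.2 CPM. UMIs of a narrower immediate early set were found in 4 of 49, 20 of 32, 3 of 22 and 12 of 29 cells. The genes of that set are not listed here, and in Apcdd1+/- replicate 1 its UMIs were too few to include those of Ier2. By this set, the share of cells was largest in Apcdd1+/- replicate 2 and next in WT replicate 2, both above both replicates 1. The wider list of immediate early and heat shock genes summed to 5795, 4726, 5235 and 5122 CPM, lowest in Apcdd1+/- replicate 2. The part of immediate early genes in other results was not tested. Col1a2, a collagen gene of mesenchyme, had 2, 0, 1 and 47 UMIs, and Sparc 5, 3, 3 and 48. In WT replicate 2, 45 of the Col1a2 and 38 of the Sparc UMIs lay in the cell that held most of its mesenchyme UMIs.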

How the data were processed

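Per the file headers, PISA 0.12 wrote the deposited matrices, which hold unnormalised UMI counts. The droplet kit was DNBelab C, per the labels' protocols. The submitters' processing notes list Scanpy 1.9.1 and mm10 without saying what each was used for. The aligner, the annotation, any earlier filter on cells and the part of the transcript that was read are not given in the sources used. The members and the gene lists were chosen with earlier results of these data known. Each of the 4 libraries was 1 sample, and cells were not used as replicates. Counts were summed per library over erythroid cells and over all other kept cells, without the 8 genes starting with Hba- or Hbb-. Ratios are those of the means over libraries.

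Genotypes were compared with edgeR 4.0.16 in R 4.3.3 (TMM, filterByExpr, quasi-likelihood test, Benjamini-Hochberg threshold 0.05). The code was also run on simulated counts that gave every gene the same spread between libraries, so that run does not measure power in these data. DESeq2 1.42.0 was an alternative. An SE is the log2 difference over the root of its F statistic. The labels do not say what a replicate number marks, so the numbers were not taken to pair the libraries. Over 4451 genes, deviations of same-numbered libraries from their group means had a correlation of 0.097. With 2 libraries per group this value cannot exclude a pairing. A gene with 0 UMIs over all erythroid cells could be at up to 1.79 CPM (3 counts per 1000000 non-globin UMIs). The rule for named genes took every globin gene, up to 8 of each list by level, the 10 largest ratios outside the lists, and the 3 smallest unadjusted p each way. Genes named beyond it were chosen after their values were seen. Transcript identity was computed with Biopython 1.88 over GENCODE M21, and Hbb-bh1, Slc4a1 and Car2 have no entry in the promoter table. Alternatives changed the thresholds on globin, genes and mitochondrial share, the scaling, the filter, the tool, the block and each library. Some genes of the lists are not reported here.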

Additional observations from a re-analysis of the deposited data

How the results depend on the processing

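Leaving out 1 library in turn gave between 1 and 24 genes called between the genotypes (24 without Apcdd1+/- replicate 1, 10 without Apcdd1+/- replicate 2, 2 without WT replicate 1 and 1 without WT replicate 2; the arm with 1 library is then assumed to vary like the other), and dropping the filter on low counts gave 9 of 12820. The other 11 alternatives gave 0 called genes, among them a replicate block, which left 0 called genes with 217 at an unadjusted p under 0.05. Of these alternatives, the 20% globin threshold and a 1% limit on other-cell markers chose the same cells as the main run. They could therefore not differ from it. The cause of the extra calls was not tested. The genotype difference changed sign in 4 measures: the erythroid share without WT replicate 2 (0.195 points; -0.435 to 0.195 with a library left out), the adult-type alpha share without Apcdd1+/- replicate 1 (2.64 points; -4.52 to 2.64), and, without Apcdd1+/- replicate 2, the Hbb-bh1 share (3.18 points; -6.17 to 3.18) and the ratio of Hba- to Hbb- UMIs (-0.115; -0.115 to 0.188). Counts of genes above and below the other cells stayed at 387 to 467 and 2187 to 2465 over 8 alternatives, among them the 20% threshold, which chose the same cells. All 6 genotype genes named by p kept their sign in the alternatives that gave a value. Cdkn1c gave none without the 4 cells above 0.1% of other-cell markers.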
